A study of Mus musculus with 6 samples.

Results

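The MHC class II pathway was followed through 7 genes, chosen by symbol out of 23366 listed: Cd74, Ciita, H2-Aa, H2-Ab1, H2-Eb1, H2-DMa and H2-DMb1. They were chosen with earlier results of these data known, above all the wide spread of Cd74 among the control libraries, so the members' own values are given as a description and no p-value is reported for them. RNA was sequenced from SC4 cells, a mouse Schwann cell line isolated from an Nf2-null schwannoma, so that control and treated cells alike lack Nf2, which encodes the tumour suppressor merlin. Cells received a control siRNA or a Smartpool of siRNAs against YAP, the transcriptional co-activator encoded by Yap1, and were lysed after 48 hours. There were 3 libraries per group, with replicate numbers 1 to 3. All came from 1 cell line, and nothing in the labels says whether the cells were cultured separately. The p-values therefore reflect spread among libraries that may be technical.

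MHC class II molecules are pairs of an alpha and a beta chain that show peptides from endosomes to helper T cells. Cd74 encodes the invariant chain, which fills the peptide groove of newly made class II dimers and guides them to endosomes. There proteases trim it, and the DM molecule, made of the products of H2-DMa and a DMb gene, exchanges its last fragment for peptide. CIITA, the class II transactivator, switches these genes on together by docking onto DNA-binding complexes (RFX, CREB and NF-Y) at their promoters, and interferon gamma induces Ciita in many cells that are not professional antigen-presenting cells. Schwann cells can show class II in inflamed nerve. The invariant chain also reaches the cell surface on its own, where with CD44 it acts as a receptor for the cytokine MIF.

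Promoters of class II genes carry a conserved pair of elements, the X box bound by RFX and the Y box bound by NF-Y, through which CIITA acts. The letters CTNGNAAC (a core of the X box) and ATTGG (a core of the Y box) were searched on both strands of the RefSeq promoter windows (GRCm38.p6; 250 bases before to 50 after a gene's start); both motifs were chosen after these promoters had been seen, and they do not overlap each other. Of 32851 windows, 13.2% held the first and 37.4% the second. Windows were listed for 4 of the 7 members, H2-Aa, H2-Eb1, H2-DMa and H2-DMb1. In 3 of these both motifs lay on the gene's strand with starts 35 or 36 bases apart. That spacing was present in 11 windows, or 0.0335%, with pairs on either strand counted and these members included. It was taken from these members, so its rarity is not a test. With a spacing of 30 to 40 bases the count was 47 windows, or 0.143%, and included H2-Ob, which encodes a chain of the DM modulator, at 33 bases. These 4 stretches are shown as the class II windows in which both motifs were found at a spacing of 30 to 40 bases. No such pair was found in the windows of H2-DMb2, H2-Oa and H2-Eb2. No window was listed for Cd74, Ciita or H2-Ab1. Capitals mark the matched letters, the X core first, with 20 bases on either side.
H2-Aa, chr17:34287847-34287927, minus strand: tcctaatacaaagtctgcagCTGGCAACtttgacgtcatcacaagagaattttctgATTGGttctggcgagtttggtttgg
H2-Eb1, chr17:34305753-34305832, plus strand: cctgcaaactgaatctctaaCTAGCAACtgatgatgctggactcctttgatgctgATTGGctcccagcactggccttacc
H2-DMb1, chr17:34153074-34153154, plus strand: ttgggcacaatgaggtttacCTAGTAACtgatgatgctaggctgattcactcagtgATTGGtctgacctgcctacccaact
H2-Ob, chr17:34238795-34238872, plus strand: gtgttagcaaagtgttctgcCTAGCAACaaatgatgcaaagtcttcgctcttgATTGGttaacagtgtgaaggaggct
The X core lay 84, 94, 97 and 90 bases before the start of H2-Aa, H2-Eb1, H2-DMb1 and H2-Ob. In both listed windows of H2-DMa no such pair was found, which says only that these letters at this spacing are not in those windows.

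Values are normalized counts, that is reads per gene divided by 1 size factor per library. The libraries held 18025132 to 60078880 reads in genes, and a single read counted for 0.461 normalized counts in control replicate 3 and 1.52 in control replicate 1. The siRNA target itself was lower in each library that received the pool: Yap1 had 4749.6, 5732 and 4751 normalized counts in control replicates 1, 2 and 3, and 936, 571 and 475 in YAP siRNA replicates 1, 2 and 3. Replicate 1 of both groups stood apart from replicates 2 and 3 on the first principal component, which held 63.5% of the variance. Values are therefore given by library. Being lowest or highest in replicate 1 of both groups was thus not particular to the genes named below. The share of all genes with that pattern was not counted. Of the Schwann lineage markers, Ngfr ran from 876 to 4621 normalized counts, whereas Sox10 and S100b were at most 15.6 and 18.7. In the paired fit described below, 8.32% of all genes were called higher and 8.96% lower. Of 6 tested lineage markers Erbb3, a neuregulin receptor gene, was called higher in it and Ngfr lower (limma adjusted p = 0.0261 and 0.00721). The call of Erbb3 was lost without replicate 2 (0.174) or 3 (0.127) of both groups, and that of Ngfr without replicate 2 (0.0723).

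Most class II pathway genes had no reads or almost none, with and without YAP siRNA. Ciita, the transactivator, had 0 reads in each of the 6 libraries. The alpha chain gene H2-Aa and the beta chain gene H2-Ab1, which together encode the A molecule, also had 0 reads in every library. For each of these 3 genes, 0 reads allows a level of up to 3 reads, or 1.38 normalized counts in control replicate 3, the deepest library, and 4.55 in control replicate 1; these limits cover counting error only. All 6 libraries had 0 reads for 5857 of the 23366 genes listed, or 25.1%.

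H2-Eb1, the beta chain gene of the E molecule, had 4 reads in control replicate 1, or 6.07 normalized counts, and 0 in the other 5 libraries. H2-DMb1, a beta chain gene of the DM exchange factor, had 1 read in YAP siRNA replicate 1 and 0 elsewhere. Among the other class II genes listed, H2-DMb2, H2-Oa, H2-Ob, H2-Ea-ps and H2-Eb2, 5 of 5 had 0 reads in every library.

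**Figure D1:**
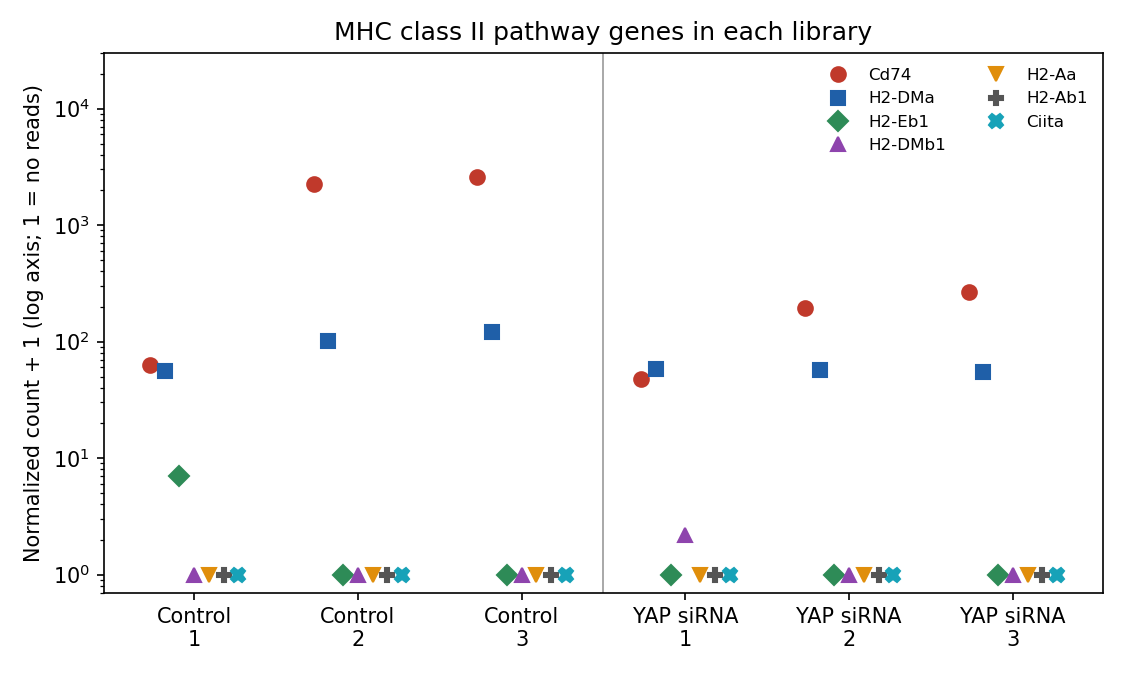
Normalized counts of the 7 class II pathway genes in each library (log axis of the value + 1, where 1 means no reads); each symbol is 1 gene in 1 library. Cd74 stands at 2232 and 2584 in control replicates 2 and 3 and at most at 264 in the other 4 libraries, H2-DMa lies between 54.3 and 121, and the other 5 genes are at or near 0.

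Cd74 was the exception. It had 62.2, 2232 and 2584 normalized counts in control replicates 1, 2 and 3, from 41, 2863 and 5609 reads. In YAP siRNA replicates 1, 2 and 3 it had 46.9, 193 and 264, from 39, 191 and 175 reads. Control replicates 2 and 3 were thus far above the other 4 libraries, while control replicate 1 was below YAP siRNA replicates 2 and 3, so that the groups overlapped.

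The spread of Cd74 within the control group was wider than the difference between group means on the log2 scale. Control replicates 2 and 3 were 35.9 and 41.5 times control replicate 1, and YAP siRNA replicates 2 and 3 were 4.11 and 5.63 times YAP siRNA replicate 1. On the log2(value + 1) scale Cd74 spanned 5.75 over the 6 libraries, and 43 of the 12820 genes that reached a mean of 10 spanned more. The mean log2 value of control replicates 2 and 3 exceeded that of control replicate 1 by 5.25, and 21 of those genes had a larger excess. Cd74 was chosen with this spread known, so these ranks are a description only.

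Compared between libraries of the same number, Cd74 under YAP siRNA was 8.64% of the control in replicate 2 (95% interval 7.42% to 10.0%, exact binomial on the reads) and 10.2% in replicate 3 (8.73% to 11.9%). In replicate 1, where both libraries were low, it was 75.4% (47.3% to 120%), an interval that includes no difference. These intervals cover counting error only. Over replicates 2 and 3 together the difference of the mean log2 values was −3.41, and 27 of the 12820 genes had a lower one. These pairs are the ones in which control Cd74 was high, so that rank too is a description only. For comparison, Yap1 was at 19.7%, 9.97% and 9.99% of the control in replicates 1, 2 and 3. Replicate 1 was thus the pair with the most Yap1 left and the least Cd74, and its control library was low in Cd74 too. Whether Yap1 and Cd74 are related was not tested.

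In order of level, the libraries ran from control replicate 3 to control replicate 2, YAP siRNA replicate 3, YAP siRNA replicate 2, control replicate 1 and YAP siRNA replicate 1. The last 2 did not differ beyond counting error (1.33-fold, 95% interval 0.835 to 2.11). The steps between the others were 1.16-fold (1.11 to 1.21), 8.46-fold (7.26 to 9.91), 1.37-fold (1.11 to 1.69) and 3.10-fold (2.20 to 4.45). The step of 8.46-fold, from control replicate 2 to YAP siRNA replicate 3, was the largest.

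The group means of Cd74 were 1626 ± 1366 normalized counts in the controls and 168 ± 111 under YAP siRNA (SD, n = 3 each). The fitted log2 fold change was −2.41, with an SE of 1.51 when libraries were not paired and 0.51 in a paired fit, which takes the replicate number as a block. It was −4.15 without control replicate 1, −1.48 without control replicate 3 and −3.41 without replicate 1 of both groups. Only 2 of the 7 members, Cd74 and H2-DMa, passed the filter of a mean of 10 on low values. At a limma adjusted p under 0.05, 0 of these 2 were called without the block, where 0.0% of all genes were, and 1, Cd74, was called lower with it, where 8.96% of all genes were. The genes were chosen with this contrast known, so nothing is read from that count. The median log2 fold change over all 7 members was 0, which is the value of the 3 members with no reads in any library. It thus says nothing about change in the others. Over the 12820 genes tested, all of which passed the filter, the median was 0.0094, so the 2 medians are not comparable.

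H2-DMa, which encodes the alpha chain of the DM exchange factor, was the other member with reads in every library. It had 54.6, 101 and 121 normalized counts in control replicates 1, 2 and 3 and 57.7, 55.5 and 54.3 in YAP siRNA replicates 1, 2 and 3. Control replicates 2 and 3 were again the high ones, and the other 4 libraries lay between 54.3 and 57.7. By number, H2-DMa under YAP siRNA was 106% of the control in replicate 1 (95% interval 67.1% to 168%), 55.2% in replicate 2 (39.5% to 76.2%) and 44.9% in replicate 3 (30.8% to 63.8%).

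The fitted log2 fold change of H2-DMa was −0.64, with an SE of 0.37 without and 0.31 with the block. In RefSeq, H2-DMa overlaps Brd2, a bromodomain gene on the other strand, and whether reads were counted by strand is not given in the sources used here. Brd2 had 11249, 13390 and 13061 normalized counts in the controls and 8973, 8999.8 and 8884 under YAP siRNA, or 1135 to 1711 per kilobase of exon where H2-DMa had 15.7 to 35.0. Its part in the H2-DMa values was not tested.

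Per length, Cd74 ranked among the abundant transcripts in 2 libraries only. In control replicates 2 and 3 it had 1329 and 1539 normalized counts per kilobase of annotated exons, above 94.7% and 95.5% of the 16402 genes with reads and a length. In control replicate 1 it had 37.1, at the 42.4th percentile, and in YAP siRNA replicates 1, 2 and 3 it had 27.9, 115 and 157, at the 39.8th, 54.6th and 59.8th percentiles. H2-DMa ran from 15.7 to 35.0 per kilobase. Per kilobase, Cd74 in control replicate 3 was at least 4229-fold higher than H2-Aa and at least 2860-fold higher than H2-Ab1, both taken at the limit of 3 reads in that library, and 44.0-fold higher than H2-DMa. In YAP siRNA replicate 3 the same values were at least 132-fold, at least 89.2-fold and 9.98-fold.

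**Figure D2:**
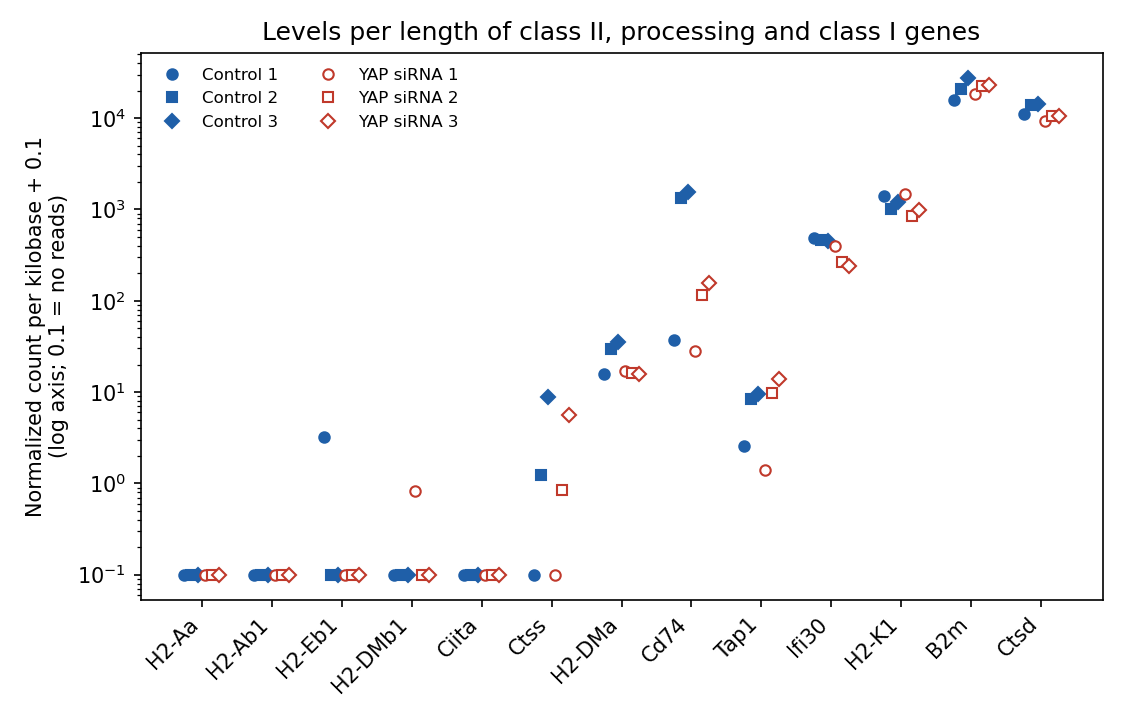
Normalized counts per kilobase of exon + 0.1 (log axis, where 0.1 means no reads) for class II, processing and class I genes; filled symbols are the 3 control libraries and open symbols the 3 YAP siRNA libraries. The class II chain genes lie at the bottom, Cd74 reaches 1329 and 1539 per kilobase in control replicates 2 and 3, near H2-K1 at 1005 and 1206, and B2m and Ctsd lie above.

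Genes of other cells that make class II were looked for in the same libraries. Of 12 myeloid and dendritic cell markers, 5 passed the filter on low values, and the sum of all 12 was 293 to 366 normalized counts in the controls and 226 to 316 under YAP siRNA. Tyrobp, a signalling adaptor of myeloid cells, had 0 reads in all 6 libraries, and Emr1 (now Adgre1), Itgam and Itgax were at most at 0.461, 1.56 and 1.01. Csf1r, the receptor gene for macrophage colony-stimulating factor, had 120, 168 and 196 in control replicates 1, 2 and 3 and 81.7, 62.6 and 84.4 under YAP siRNA, and was the marker that fell with the block (log2 fold change −1.05, SE 0.25, limma adjusted p = 0.0253 paired and 0.251 unpaired). The call of Csf1r was lost without replicate 2 of both groups (limma adjusted p = 0.229) and without replicate 3 (0.0888). The other tested myeloid markers moved differently, and none of them passed the paired fit. Ptprc, the leukocyte phosphatase CD45, had 0, 28.8 and 11.1 in control replicates 1, 2 and 3 and 6.01, 29.3 and 13.6 with YAP siRNA, and Aif1 had 0, 35.1 and 17.5 against 2.40, 25.2 and 10.5. Both were thus lowest in control replicate 1, and like Cd74 higher in replicates 2 and 3 of each group than in replicate 1. Lyz2, for a lysozyme, had 1.52, 11.7 and 4.61 against 6.01, 21.2 and 52.7 (log2 fold change 1.85, paired limma adjusted p = 0.0873, and 0.00239 without replicate 1 of both groups). Cd68 ran from 109.9 to 164 in the controls and 101 to 154 with YAP siRNA. The 5 lymphoid markers summed to at most 7.83 and included Ms4a1 at 0 throughout. Of 4 endothelial markers 3 were tested, and 0 rose or fell in the paired fit, where 17.3% of all genes did. Kdr ran from 115 to 161 in the controls and 150.4 to 222 with YAP siRNA. Pecam1 had 21.2, 60.8 and 64.0 in control replicates 1, 2 and 3 against 21.6, 17.2 and 40.7 (log2 fold change −0.79, paired limma adjusted p = 0.226), with control replicates 2 and 3 the highest as for Cd74, and was called lower without replicate 1 of both groups (0.0086). The paired fit without replicate 1, given for Lyz2 and Pecam1, called 2804 of the 12820 tested genes higher and 2792 lower. In control replicates 2 and 3, where Cd74 was high, H2-Aa, H2-Ab1 and H2-Eb1 were at 0 and H2-DMa was at its highest. The part of other cell types in the Cd74 values was not tested. In bulk RNA, fewer cells of a type and less RNA per cell cannot be told apart.

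The 5 genes with profiles most like that of Cd74 were taken among 446 genes whose mean reached 50 and whose log2 range was at least 0.5 times that of Cd74. They were Ssc5d, Trf, Lin7a, Rtn4rl1 and Pcdhgc5, with Pearson correlations of 0.995, 0.993, 0.993, 0.992 and 0.991 with Cd74 over the 6 libraries, which share depth and scaling. In all, 100 of the 446 reached 0.9, so many of these candidates shared the profile. Trf, which encodes the iron carrier transferrin, had 229, 1628 and 1593 normalized counts in control replicates 1, 2 and 3, and 160, 333 and 378 in YAP siRNA replicates 1, 2 and 3. Ssc5d, a soluble scavenger receptor gene, had 264, 1570 and 2118, and 248, 546 and 592. In each of the 5, control replicates 2 and 3 were the highest libraries.

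By number, YAP siRNA left these 5 genes at 69.8% to 114% of the control in replicate 1, 17.8% to 34.8% in replicate 2 and 15.9% to 32.2% in replicate 3. Cd74 was below that range in both of the last 2. Lin7a, a scaffold gene, and Rtn4rl1, which encodes a relative of the Nogo receptor, ran from 37.9 to 328 and from 16.7 to 247. Pcdhgc5 ran from 36.1 to 454; it shares its last exons with the other genes of the gamma protocadherin cluster, so its count is uncertain. These genes were picked for their likeness in these libraries, and no test is given.

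**Figure D3:**
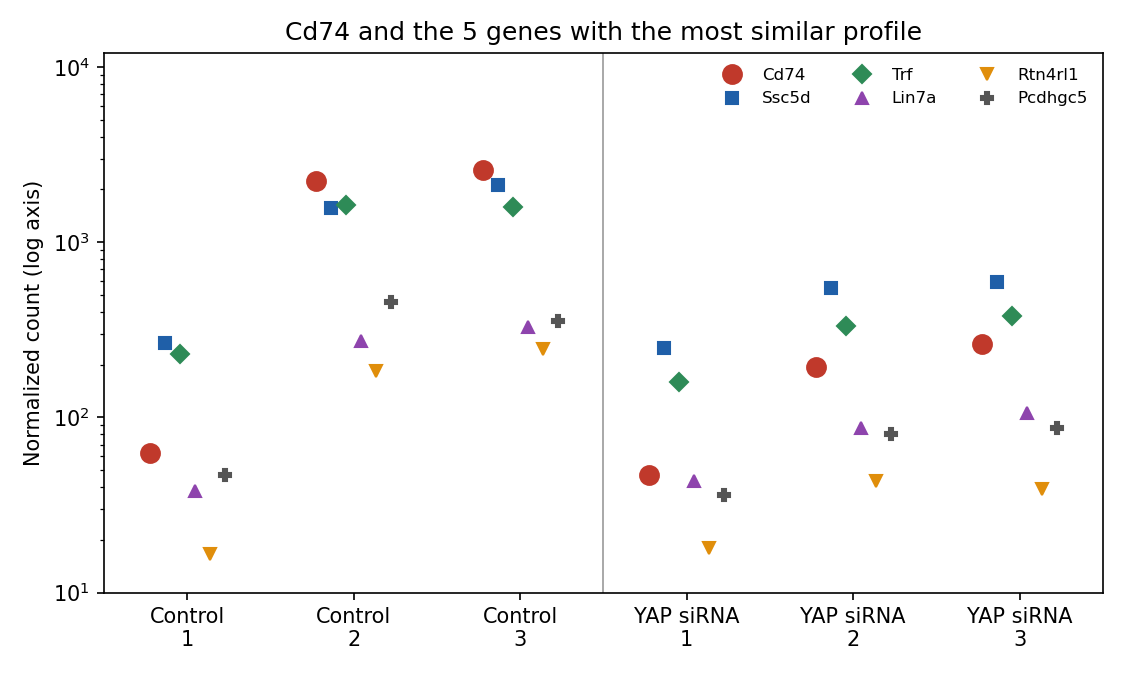
Normalized counts (log axis) of Cd74 and of the 5 genes with the highest Pearson correlation with it over the 6 libraries; each symbol is 1 gene in 1 library. In each gene the 2 highest libraries are control replicates 2 and 3, and Cd74 lies farthest above its own control replicate 1 there.

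The wider pathway was read from lists of the other class II chains, class II processing, class II transcription, interferon gamma signalling and targets, class I presentation, CD74 partners and costimulation, chosen with earlier results known. Of 81 such genes, members left out, 68 were tested. Without the block 0 passed in limma at an adjusted p under 0.05 and 0 in edgeR, 9 had an unadjusted p under 0.05, and DESeq2 called 5, where it called 2.54% of all genes higher and 3.1% lower. With the block limma called 11 higher and 5 lower, 23.5% of the list, where 17.3% of all genes were called, 8.32% higher and 8.96% lower. Below, rose and fell are used of genes that passed with the block. The counts of each list are to be read beside these shares of 8.32% higher and 8.96% lower. Each of these calls was lost in limma without a mean-variance trend. Leaving out a pair changed the counts, in the lists and among all genes. Without replicate 2 of both groups 4 list genes were called higher and 0 lower, where 300 of the 12820 tested genes were called in either direction. Without replicate 3 it was 6 and 2, where 1128 of the tested genes were called. Without replicate 1 it was 21 and 10, where 5596 were called. The shares of 8.32% and 8.96% belong to the paired fit with all libraries and not to these fits.

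The endosomal machinery that trims the invariant chain was present at high level, without its specialist. Ctss, the gene for cathepsin S, which performs the late trimming in professional antigen-presenting cells, had 0, 1.56 and 12.0 normalized counts in control replicates 1, 2 and 3 and 0, 1.01 and 7.54 under YAP siRNA, and did not pass the filter. Ctsl, the gene for cathepsin L, which does this work in thymic epithelium, had 9569, 23756 and 22772 in the controls and 7899, 17548 and 15899 under YAP siRNA. Like Cd74, it was lowest in replicate 1 of both groups.

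Of 10 tested processing genes, 1 was higher and 3 lower, with a median log2 fold change of −0.15. Ctsl fell by 0.41 and Ctsd, for cathepsin D, by 0.36 on the log2 scale (limma adjusted p = 0.0162 and 0.0253 paired, 0.810 and 0.415 unpaired). Ifi30, a lysosomal thiol reductase gene that interferon induces, fell from 476, 450 and 440.5 to 387, 263 and 238 in replicates 1, 2 and 3 (log2 fold change −0.65, SE 0.17, limma adjusted p = 0.0326 paired and 0.335 unpaired). The groups did not overlap for Ifi30 or Ctsd, nor for Ctsb and Sppl2a, which were not called. That made 4 of the 10 with YAP siRNA lower, where 9.49% of all tested genes were. In the other direction it was 1, March8, where 9.47% of all tested genes were. March8, for a membrane ubiquitin ligase that acts on class II, rose from 2847, 2774 and 2274 to 3415, 3998 and 4158 (log2 fold change 0.55, SE 0.12, limma adjusted p = 0.0185 paired and 0.246 unpaired). The calls of Ctsl, Ctsd, Ifi30 and March8 were each lost when replicate 2 or replicate 3 of both groups was left out.

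Lgmn, for the asparagine-specific protease legumain, and Sppl2a, for the membrane protease that clears the last invariant chain stub, did not pass. Lgmn ran from 2527 to 4382 normalized counts in the controls and 2540 to 3870 under YAP siRNA, and Sppl2a from 2187 to 2402 and 1935 to 2085.

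The DNA-binding partners of CIITA had reads in every library, while Ciita had none detected. Rfx5 had 680, 687 and 599.9 normalized counts in control replicates 1, 2 and 3 and 620.3, 1066 and 1099 under YAP siRNA, Rfxap 668, 617 and 694 against 793, 747 and 683, and Rfxank 344, 343 and 349 against 302, 420 and 410. These 3 genes encode the RFX complex, and none of the 3 passed (paired limma adjusted p, 0.122, 0.387 and 0.669). Without replicate 1 of both groups Rfx5 was called higher (paired limma adjusted p, 5.2e-08), as were 2804 of the 12820 tested genes.

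NF-Y is built from 3 subunits. Nfya and Nfyb ran from 1099 to 2102 over both groups, and did not pass. Nfyc had 476, 20.3 and 59.9 in the controls and 435, 39.4 and 72.3 under YAP siRNA, so that it was high in replicate 1 of both groups, where Cd74 was lowest. Creb1 ran from 2055 to 2440.1 in the controls and 2566 to 3299 under YAP siRNA (log2 fold change 0.35, paired limma adjusted p = 0.0871). Of 14 tested genes in this list 1 rose, Irf2, which encodes a factor at an interferon-responsive promoter of Ciita (log2 fold change 0.48, limma adjusted p = 0.0313 paired and 0.750 unpaired; 0.205 without replicate 2 and 0.223 without replicate 3 of both groups), and 0 fell. The list's median was 0.14.

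The receptor and kinases that relay interferon gamma to Ciita were expressed. Ifngr1, for the ligand-binding receptor chain, had 2876, 3358 and 3000.5 normalized counts in the controls and 3710 (replicate 1), 4708 and 4313 under YAP siRNA, and rose (log2 fold change 0.46, SE 0.088, limma adjusted p = 0.0116 paired and 0.281 unpaired; 0.155 without replicate 2). Socs1, for an inhibitor of JAK kinases, fell from 200.3, 279 and 431 to 122.6, 122 and 155 (log2 fold change −1.12, SE 0.21, limma adjusted p = 0.0103 paired and 0.261 unpaired; 0.0914 without replicate 2). Neither gene's groups overlapped, as for 9.47% of all tested genes in the upward and 9.49% in the downward direction.

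Ifngr2, Jak1, Jak2 and Irf1 did not pass, with log2 fold changes of −0.12, −0.024, 0.19 and 0.31 (paired limma adjusted p, 0.450, 0.869, 0.218 and 0.0516). Ifng itself had 0 in 5 libraries and 5.46 in control replicate 2. Of 11 tested genes in this list 1 rose and 1 fell, and the median was 0.19.

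Of 9 tested genes that interferon induces 5 rose under YAP siRNA and 0 fell, where 8.32% of all genes rose and 8.96% fell. The list's median log2 fold change was 0.82. Without replicate 2 of both groups 3 were called higher, where 300 of the 12820 tested genes were called in either direction. Without replicate 3 it was 4, where 1128 of the tested genes were called. Without the block, or with the block but no trend, 0 passed in limma. Gbp3, Igtp, Iigp1 and Cxcl9 did not pass (log2 fold changes 0.53, −0.33, 0.82 and −0.29). Gbp2, a guanylate-binding protein gene, had 80.4, 399.9 and 352 normalized counts in control replicates 1, 2 and 3, and with YAP siRNA it was 1.62, 0.97 and 1.30 higher on the log2 scale in replicates 1, 2 and 3 (log2 fold change 1.30, SE 0.17, limma adjusted p = 0.00328 paired and 0.562 unpaired). Irgm1 rose by 0.64 and the chemokine gene Cxcl10 by 1.29 on the log2 scale (limma adjusted p = 0.00419 and 0.00543 paired, 0.473 and 0.522 unpaired). Gbp7 and Cd274, which encodes the checkpoint ligand PD-L1, rose by 1.09 and 0.83; both were named after their values were seen, and both lost the call without replicate 2 of both groups (limma adjusted p = 0.0680 and 0.135), Cd274 also without replicate 3 (0.108).

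Like Cd74, Gbp2 and Cxcl10 were lowest in replicate 1 within each group. Unlike Cd74, in which replicate 1 differed little between groups, Cxcl10 had 288 and 1148 in the control and YAP siRNA libraries of replicate 1, 1299 and 2468 in replicate 2, and 1456 and 2844 in replicate 3. Igtp, an interferon-inducible GTPase gene on the same list, was named after its values were seen. It had 37.9, 223 and 343 in the controls and 56.5, 139 and 187 under YAP siRNA. Igtp did not pass (paired limma adjusted p = 0.475). Without replicate 1 of both groups it was called lower (0.00084), the direction of Cd74, and the list then had 5 higher and 1 lower. That fit called 2804 of the 12820 tested genes higher and 2792 lower.

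**Figure D4:**
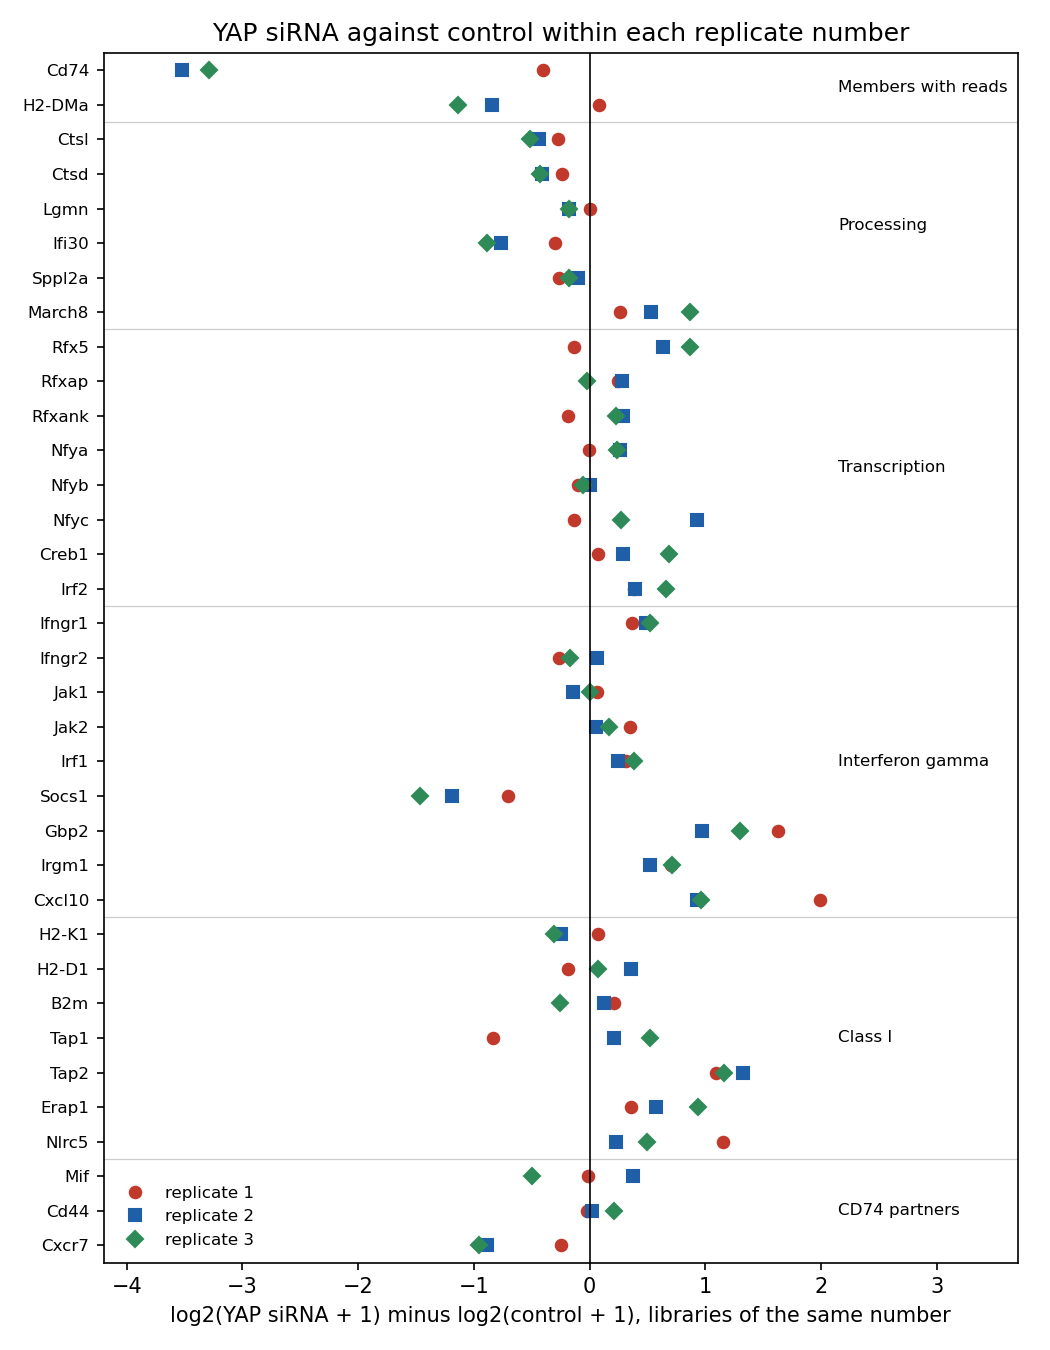
Differences of log2(normalized count + 1), YAP siRNA minus control, between libraries of the same replicate number (circle 1, square 2, diamond 3). Cd74 lies at −0.40 and H2-DMa at 0.078 in replicate 1, and each of them lies lower in replicates 2 and 3. March8, Creb1, Irf2, Ifngr1, Jak2, Irf1, Gbp2, Irgm1, Cxcl10, Tap2, Erap1 and Nlrc5 lie above 0 in all 3. Cd74, Ctsl, Ctsd, Ifi30, Sppl2a, Socs1 and Cxcr7 lie below 0 in all 3. Of the tested interferon targets, Gbp2, Irgm1 and Cxcl10 are drawn. Gbp3, Gbp7, Igtp, Iigp1, Cxcl9 and Cd274 are not.

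RNA for the class I light and heavy chains, whose assembly needs no invariant chain, was present at high level in every library. B2m, the light chain gene, had 13569, 17986 and 23756 normalized counts in the controls and 15725, 19563 and 19917 under YAP siRNA, with a log2 fold change of 0.027 and a paired 95% interval of −0.21 to 0.27. The heavy chain genes H2-K1 and H2-D1 ran from 2495 to 4314 and from 1027 to 3030.3, and did not pass; reads of such closely related genes may be shared among them. Both were highest in replicate 1, where Cd74 was lowest.

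Nlrc5, the class I counterpart of Ciita, had 22.8, 85.0 and 88.5 in the controls and 51.7, 99.9 and 125 under YAP siRNA (paired limma adjusted p = 0.165). Of 14 tested class I genes 2 rose and 0 fell, with a median of 0.15. Tap2, a subunit of the peptide transporter, rose by 1.19 and Erap1, a peptide-trimming protease gene, by 0.62 on the log2 scale (limma adjusted p = 0.0159 and 0.0161 paired, 0.348 and 0.224 unpaired); both calls were lost without replicate 2 or without replicate 3 of both groups. Tap1, Psmb8 and Psmb9 were low, between 0 and 75.4, and did not pass.

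Of the genes tied to the receptor role of CD74, 1 passed. Mif had 618, 123.2 and 326 normalized counts in the controls and 611, 160.5 and 231 under YAP siRNA, and was thus high in replicate 1 of both groups. Cd44, the signalling partner of CD74, ran from 13798 to 17786 in the controls and 14836 to 17485 under YAP siRNA, with a log2 fold change of 0.067 and a paired 95% interval of −0.13 to 0.26. Cxcr7, an atypical chemokine receptor gene, fell from 2401, 2949 and 3107 to 2022, 1599 and 1597 (log2 fold change −0.70, SE 0.14, limma adjusted p = 0.0147 paired and 0.215 unpaired; 0.132 without replicate 2). In this list 0 rose and 1 fell of 6 tested, with a median of −0.044.

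Of the costimulatory genes that accompany class II on professional cells, Cd86 had 0 reads in every library and Cd80 at most 7.02 normalized counts. Cd40, for the receptor through which helper T cells license such cells, had 62.2, 148 and 144 in control replicates 1, 2 and 3 and 28.9, 110.0 and 102 with YAP siRNA, and did not pass (paired limma adjusted p = 0.108). Like Cd74, it was lowest in replicate 1 of each group, and the YAP siRNA library was the lower of each pair. Cd276, a B7 family gene found on many cell types, rose from 1546, 1442 and 1323 to 2209, 3170 and 3347 (log2 fold change 1.00, SE 0.15, limma adjusted p = 0.00543 paired and 0.165 unpaired), 1 of 4 tested in this list, with 0 lower and a median of 0.16.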

How the data were processed

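Poly(A) RNA from SC4 cells was made into paired-end libraries with directional adapters, per the labels' protocols. The submitters' processing notes name TopHat2 2.0.9, HTSeq 0.6.1, DESeq 1.14.0 and mm9, without roles; the annotation is not given in the sources used here, nor are strand setting and filters. What the authors deposited is a signal: each gene's count divided by a library's size factor. Of the values above 0, 100% were whole multiples of 1 read's worth (within 0.01 reads), which gave back the reads.

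limma 3.58.1 in R 4.3.3 was run on log2(value + 1) for genes averaging 10 or more, with a mean-variance trend, two-sided tests and Benjamini-Hochberg adjustment. No covariate entered the design chosen as main. Deviations from the group mean moved together in libraries of the same number (correlations 0.788, 0.705 and 0.532, all over the 0.1 required), although replicate 3 reached 0.552 with another number and no label names a shared day. A paired fit, with the replicate number as block, is thus shown alongside. Pseudocounts, filters, scalings, thresholds and libraries were varied, as was the trend, and edgeR 4.0.16 and DESeq2 1.42.0 were run on the recovered reads. Scripts were tested on simulated data.

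Members and lists were chosen with earlier results of these data known. Named genes were the members, a set picked by role, up to 3 called genes of smallest p per list (1 where none was called), and the 5 genes most correlated with Cd74. Exon lengths came from GENCODE M21 by symbol, for 21732 of 23366 genes. Fold changes on this scale understate changes of low genes. Some genes of these lists are not reported here.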

Additional observations from a re-analysis of the deposited data

How the results depend on the processing

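Without the block, limma called 0 genes and 0 list genes under every pseudocount, filter, scaling and threshold tried and without the trend, and edgeR called 0 and 0; DESeq2 called 722 and 5. With the replicate block limma called 2216 genes and 16 list genes, edgeR 2479 and 17, and DESeq2 2490 and 17. The block without a trend gave 30 and 0. Added after seeing the data, the block with libraries rescaled to one total gave 2252 and 17, with quantile normalization 2323 and 17, and without the filter 2137 and 16. Rescaling to one total changed the split of calls from 1067 higher and 1149 lower to 1225 and 1027.

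Leaving out 1 library at a time without the block gave 0 to 497 genes (497 when control replicate 1 was the one omitted, 8 for YAP siRNA replicate 1), and 0 list genes. With the block and a pair left out, counts ran from 300 (without replicate 2) to 5596 genes (without replicate 1), and from 4 to 31 list genes; 1128 and 8 were called without replicate 3. With so few libraries, p-values rest largely on variance borrowed from other genes. Where a group keeps fewer libraries, they are assumed to vary like the rest.

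The log2 fold change of Cd74 kept its sign in every alternative, from −4.15 to −1.48. The members' median was 0 in each, as the value of members without reads, and says nothing about change. It has no value in edgeR or DESeq2, which give none for genes without reads. Of 2207 single-gene values under alternatives, 130 changed sign with neither value past the threshold. For Ciita, H2-Aa and H2-Ab1 depth sets the limit, up to 4.55 normalized counts in control replicate 1.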
